A study of Mus musculus with 12 samples.

Results

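The complement genes described here are C3, C4b, C2, Cfb, Cfi, Cfd, Cd55, Cd59a and Serping1. They were taken by gene symbol from the expression table, which lists all 9 of them among 17734 genes. Rectal RNA of 12 male C57BL/6 mice aged 8 to 10 weeks, 3 per group, was sequenced. Normal mice drank water and colitis mice drank 2.5% dextran sulfate sodium (DSS) for 7 days, a chemical that injures the colonic epithelium. In a second pair of groups, normal mice or colitis mice also received berberine (BBR), a plant alkaloid, at 100 mg/kg by gavage once a day. The study's methods state that BBR was given from day 1 to day 7, whereas the labels state 6 days, and the tissue is rectum by the methods and colorectum by the labels. No mouse carried a genetic change, so colitis here is the effect of 1 chemical in wild-type males at 1 time point. Mice are called by their group and label number, which is 1, 3 or 4 in both normal groups, 1, 2 or 4 in colitis mice and 2, 3 or 4 in colitis mice receiving BBR.

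The values are FPKM, which scales reads by sequencing depth and transcript length. Differences were tested with limma on log2(FPKM + 0.1) over the 15315 genes whose mean reached 0.1, and 8 of the 9 complement genes were among these. A gene was counted as changed at a limma adjusted p under 0.05, and the unadjusted P limit of 0.05 used in the study is given beside it. The 4 mice numbered 4 stood apart in every group. Their values summed to 482194 to 504337 FPKM with 872 to 1086 genes at 0, against 696286 to 765876 FPKM and 1332 to 1926 genes at 0 in the other 8 mice. The epithelial markers Epcam, Cdh1, Krt8, Krt18, Krt19, Krt20, Vil1 and Cdx2 were present in every mouse, with a summed level of 6356.58 to 12673.8 FPKM. Summed neutrophil markers were 0.29 to 2.03 FPKM in normal mice and 45.42 to 493.21 FPKM in colitis mice. In colitis mice receiving BBR they were 218, 197.16 and 2.55 FPKM in mice 2, 3 and 4, so colitis mouse 4 receiving BBR was near the normal mice on this measure. In bulk tissue, fewer cells of a type and less RNA per cell cannot be told apart.

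Complement is a cascade of plasma and tissue proteins that tags surfaces for uptake and can punch pores in membranes. C4b and C2 supply the C3 convertase of the classical and lectin pathways, whereas factor B (Cfb), cut by factor D (Cfd), supplies that of the alternative pathway, and both enzymes cleave C3. Host cells are shielded by inhibitors, among them Cd55, which speeds the decay of convertases, Cd59a, which blocks the pore, Serping1, which inhibits the C1 proteases, and factor I (Cfi), which cuts C3b and C4b. Most complement protein in blood comes from the liver, but intestinal epithelium and stroma make components locally.

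Promoter sequences from RefSeq (mouse build GRCm38.p6) matched 4 of the 9 genes by symbol, C3, Cd55, Cd59a and Cfd, and C4b, C2, Cfb, Cfi and Serping1 were not matched. The 250 bases before the annotated start are shown for Cd55 and C3, the 2 of those 4 genes whose mean level was higher in colitis mice than in normal mice. The Cd55 window lies at chr1:130462745-130462994 on the minus strand and the C3 window at chr17:57228137-57228386 on the minus strand. Capitals mark letters of the C/EBP motif, the binding site of a family of transcription factors active in inflammation.
Cd55: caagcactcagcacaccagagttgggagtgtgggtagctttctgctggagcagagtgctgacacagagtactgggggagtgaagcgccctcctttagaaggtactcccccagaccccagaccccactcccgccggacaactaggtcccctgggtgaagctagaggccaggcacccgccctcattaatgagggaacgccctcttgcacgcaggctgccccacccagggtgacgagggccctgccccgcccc
C3: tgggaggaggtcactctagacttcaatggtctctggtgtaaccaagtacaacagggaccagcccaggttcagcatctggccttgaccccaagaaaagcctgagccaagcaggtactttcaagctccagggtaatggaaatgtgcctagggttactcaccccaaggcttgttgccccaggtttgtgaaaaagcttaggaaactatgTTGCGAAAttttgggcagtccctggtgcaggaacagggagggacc
The C3 window held TTGCGAAA, a match to TTGCNNAA, at -45 to -38 from the start, and its GC content was 52%. These letters were set after the C3 window had been read, since a first spelling with 1 more base between the ends had no match in any of the 4 windows. TTGCNNAA, searched on both strands, occurred in 9.55% of 27025 promoter windows of the same length. The Cd55 window, with a GC content of 64%, held none of the 5 motifs searched. The others were STAT (TTCNNNGAA, in 7.18% of all windows), NF-kB (in 7.01%), the TATA box (TATAAA, in 13%) and the interferon-stimulated response element (ISRE, in 3.04%). The Cd59a window held GAAAGGGAAA, an ISRE match, at -187 to -178, and the Cfd window held no match. No 2 matches overlapped, and a match to letters is not evidence of binding.

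In normal mice, the levels per transcript length ran from Serping1 at 74.6 ± 8.31 FPKM (mean ± SD, n = 3 in every group) through Cfb at 49.2 ± 4.63 FPKM and Cd55 at 27.3 ± 6.01 FPKM to C3 at 15.2 ± 13.9 FPKM and Cd59a at 12.3 ± 3.39 FPKM. C4b, at 4.73 ± 3.12 FPKM, and C2, at 1.49 ± 0.767 FPKM, were lower. Cfd is left out of this order, since 1 of its 3 normal mice held nearly all of its level. Serping1, Cfb and Cd55 did not overlap one another over the 3 normal mice, whereas the range of C3 overlapped those of both Cd55 and Cd59a, which were apart from each other. In colitis mice the order was Cd55 (139 ± 112 FPKM), Cfb (81.6 ± 4.59 FPKM), Serping1 (71.7 ± 44.9 FPKM), C3 (47.3 ± 31.2 FPKM), C4b (11.2 ± 5.38 FPKM), Cd59a (7.77 ± 4.99 FPKM) and C2 (5.41 ± 1.02 FPKM). Each of Cd55, Cfb, Serping1 and C3 overlapped its neighbour in this order, as did C4b, Cd59a and C2, and C3 did not overlap C4b.

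**Figure D1:**
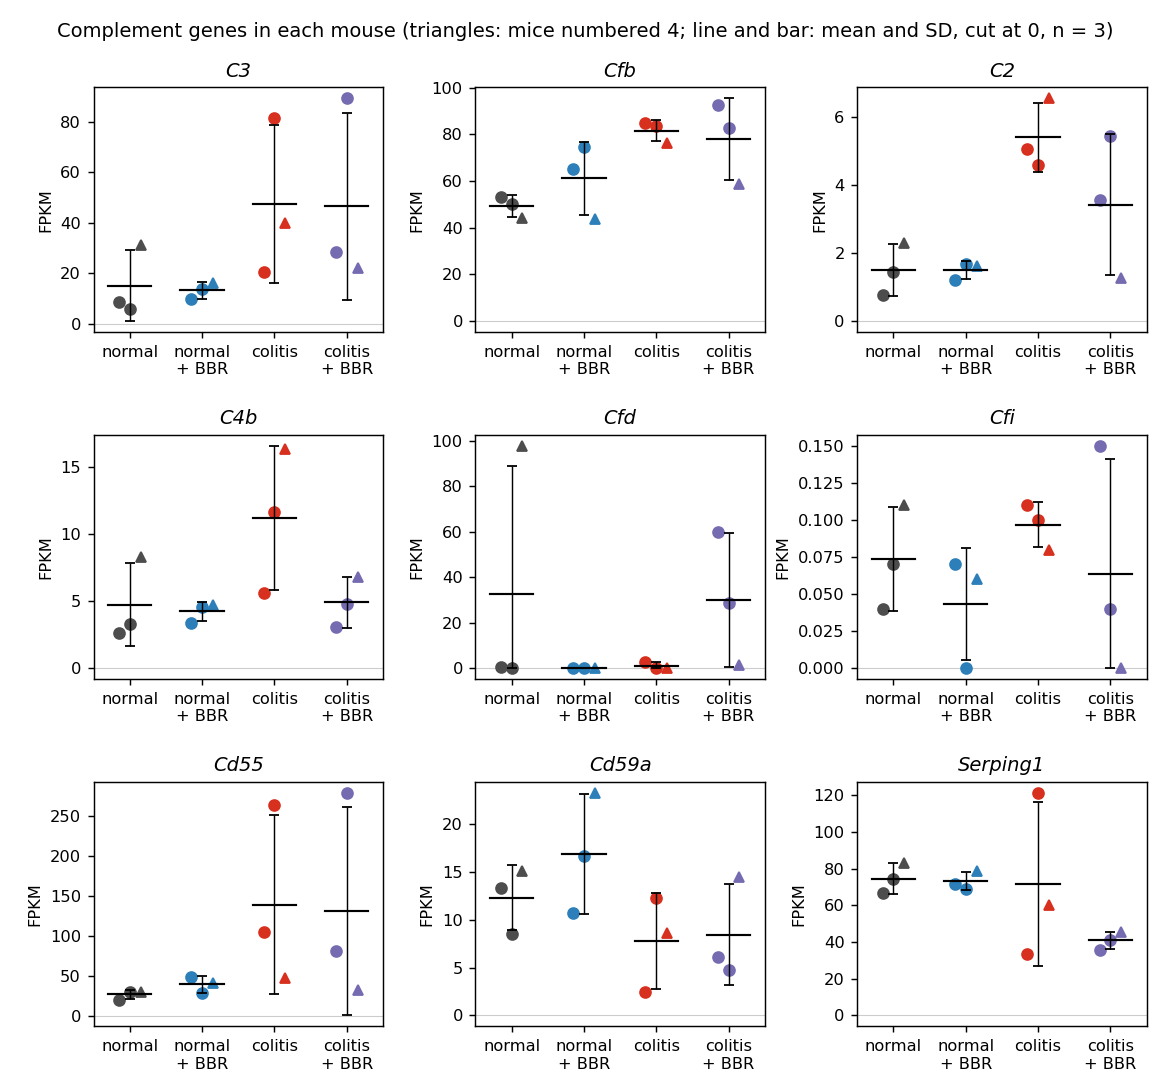
Level of the 9 complement genes (y axis, FPKM) in each of the 12 mice by group (x axis), with a horizontal line at the mean and a bar of 1 SD (n = 3) that is cut at 0. C2 and Cfb of the 3 colitis mice sit above all 3 normal mice (C2 at 4.60 to 6.56 against 0.76 to 2.29 FPKM), and triangles mark the mice numbered 4.

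The comparison of colitis mice with normal mice asks what DSS colitis did to these genes. C3, C4b, C2, Cfb and Cd55 were each higher in colitis, by 1.66 to 4.09 times, and Cfd, Cd59a and Serping1 did not pass even the unadjusted limit. None of the 8 tested genes passed the limma adjusted limit, which 1.08% of all genes passed. At the unadjusted limit, 5 of 8 passed, all of them higher, where 21.4% of all genes passed in either direction and 5.56% passed as higher. C2, Cfb and Cd55 had all 3 colitis mice above all 3 normal mice, so 3 of 8 did not overlap, against 29.3% of all genes in either direction and 7.1% in that direction. The median log2 difference was 1.01 over the 8 genes and -0.32 over all genes tested. Summed smooth muscle markers were 1155.83 to 2385.28 FPKM in normal mice and 45.92 to 476.28 FPKM in colitis mice, and all 7 of them had every colitis mouse below every normal mouse, with a median log2 difference of -2.99. All 5 endothelial markers were lower too, 3 of them without overlap, with a median of -1.16. None of these 12 markers passed the limma adjusted limit, and the part of the tissue make-up in the differences of the complement genes was not tested. With quantile normalization the median of all genes was -0.05, and the 5 genes stayed higher, at log2 differences of 1.92 for C3, 1.62 for C4b, 2.28 for C2, 0.80 for Cfb and 2.03 for Cd55.

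C2, the protease subunit of the classical convertase, was at 0.76, 1.43 and 2.29 FPKM in normal mice 1, 3 and 4 and at 5.08, 4.60 and 6.56 FPKM in colitis mice 1, 2 and 4. All 3 colitis mice lay above all 3 normal mice. C2 differed by a log2 value of 1.90 ± 0.50 (SE), or 3.72 times, with an unadjusted P of 0.00259 and a limma adjusted p of 0.0788. The exact two-sided permutation test gave p = 0.1, the smallest value that 3 mice against 3 allow. Within mice 1 to 3 the log2 difference of C2 was 2.10 and between the single mice numbered 4 it was 1.48. With a term for the mice numbered 4 the limma adjusted p of C2 was 0.0437, with mice 1 to 3 alone it was 0.0416, and over all alternatives it ranged from 0.0416 to 0.275. Over all genes, the term gave 1412 calls at the limma adjusted limit and mice 1 to 3 alone gave 804, against 165 in the fit as reported.

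Cfb, the corresponding protease subunit of the alternative pathway, was at 53.25, 50.14 and 44.14 FPKM in normal mice and at 84.71, 83.71 and 76.30 FPKM in colitis mice. The groups did not overlap, and the spread within each was small beside the gap. Cfb differed by a log2 value of 0.73 ± 0.23 (SE), or 1.66 times, with an unadjusted P of 0.00819, a limma adjusted p of 0.119 and an exact permutation p of 0.1. For Cfb these within-set differences were 0.70 and 0.79. A term for the mice numbered 4 gave Cfb a limma adjusted p of 0.0235, within a range of 0.0235 to 0.273 over the alternatives. That term also took the calls over all genes from 165 to 1412. In RefSeq order Cfb and C2 are neighbours on chromosome 17, with C4b and its paralog C4a nearby. Per transcript length, the level of Cfb was 19.3 to 70.1 times that of C2 in normal mice and 11.6 to 18.2 times in colitis mice.

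C3, the protein on which all pathways converge, was at 8.61, 5.83 and 31.17 FPKM in normal mice 1, 3 and 4 and at 20.47, 81.50 and 39.90 FPKM in colitis mice 1, 2 and 4. Normal mouse 4 lay above colitis mouse 1, so the groups overlapped. The log2 difference was 1.79 ± 0.68 (SE), or 3.46 times, with an unadjusted P of 0.0216, a limma adjusted p of 0.169 and an exact permutation p of 0.2. Among mice 1 to 3 alone the log2 difference was 2.51, and between the single mice numbered 4 it was 0.36.

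C4b, the component cut by the C1 and lectin proteases, was at 2.59, 3.30 and 8.31 FPKM in normal mice and at 5.63, 11.69 and 16.36 FPKM in colitis mice. Mouse 4 was the highest of both groups, and normal mouse 4 lay above colitis mouse 1. The log2 difference was 1.28 ± 0.48 (SE), or 2.44 times, with an unadjusted P of 0.0207, a limma adjusted p of 0.166 and an exact permutation p of 0.2. The log2 difference of C4b was 1.44 within mice 1 to 3 and 0.97 between the mice numbered 4. A term for the mice numbered 4 gave a limma adjusted p of 0.0409 for C4b, within a range of 0.0409 to 0.407 over the alternatives. With that term 1412 of all genes passed the limma adjusted limit, against 165 without it. The paralog C4a was listed at 0.03 to 0.17 FPKM in the 12 mice, and reads shared by the 2 copies could have been split between them.

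Among the inhibitors, Cd55 differed most. It was at 20.39, 30.56 and 31.02 FPKM in normal mice 1, 3 and 4 and at 105.46, 263.68 and 48.06 FPKM in colitis mice 1, 2 and 4. Every colitis mouse lay above every normal mouse, but the colitis mice spanned more than their distance from normal. This gave a log2 difference of 2.03 ± 0.70 (SE), or 4.09 times, with an unadjusted P of 0.0136, a limma adjusted p of 0.143 and an exact permutation p of 0.1. It was 2.74 within mice 1 to 3, 0.63 between the mice numbered 4 and 1.40 without colitis mouse 2. The limma adjusted p of Cd55 stayed between 0.0563 and 0.381 over the alternatives. Its paralog Cd55b was at 0 to 0.88 FPKM. Cd55 overlaps an antisense RNA gene, Cd55os, in RefSeq, and the counting is not stated to use strand, so reads of the pair cannot be told apart.

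Cd59a, the inhibitor of the membrane pore, was at 13.29, 8.53 and 15.10 FPKM in normal mice and at 2.40, 12.26 and 8.65 FPKM in colitis mice. The groups overlapped, with a log2 difference of -0.90 ± 0.57 (SE), an unadjusted P of 0.143 and a limma adjusted p of 0.355. Without colitis mouse 1 the log2 difference was -0.21. Its paralog Cd59b was at 0 to 0.78 FPKM.

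Serping1, the C1 inhibitor, was at 66.48, 74.11 and 83.08 FPKM in normal mice and at 33.67, 121.14 and 60.17 FPKM in colitis mice. Colitis mice 1 and 4 lay below all normal mice and colitis mouse 2 above all of them. The log2 difference was -0.25 (95% interval -1.01 to 0.52), with a limma adjusted p of 0.677. Summed fibroblast markers were 177.27, 696.17 and 288.52 FPKM and summed macrophage markers 24.33, 69.34 and 27.81 FPKM in colitis mice 1, 2 and 4. Colitis mouse 2 was highest in all 3 measures, and the part of these cells in the level of Serping1 was not tested.

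**Figure D2:**
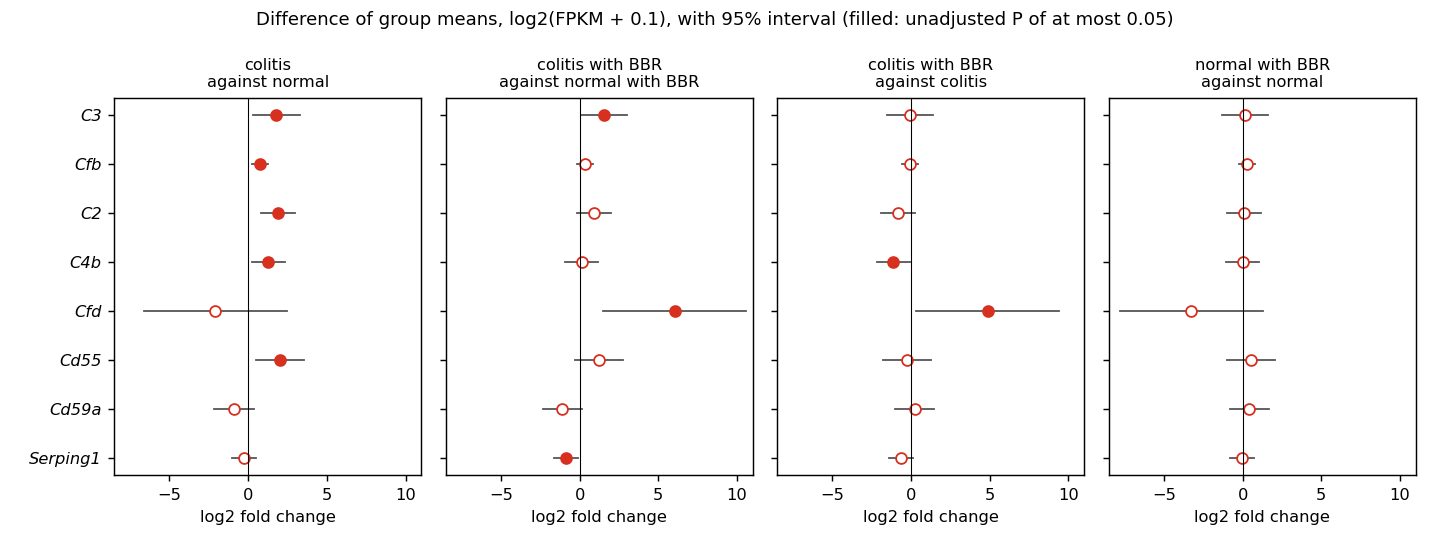
Differences of group means (x axis, log2 fold change on the log2(FPKM + 0.1) scale) of the 8 tested complement genes (y axis) in 4 comparisons, as points with 95% intervals, filled at an unadjusted P of at most 0.05. C2, Cd55, C3, C4b and Cfb are filled to the right of 0 in colitis mice against normal mice, and no point passed the limma adjusted limit.

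Colitis mice receiving BBR were compared with colitis mice to ask whether BBR altered these genes during colitis. C4b was lower with BBR and Cfd higher at the unadjusted limit, and C3, Cfb and Cd55 had similar means in both groups with wide intervals. No gene of the 8, and 0% of all genes, passed the limma adjusted limit. At the unadjusted limit 2 of 8 passed, 1 in each direction, where 6.39% of all genes passed and 5.2% passed as lower. None of the 8 had groups that did not overlap, against 7.08% of all genes. The median log2 difference was -0.18 over the 8 genes and -0.09 over all genes.

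C4b was at 3.07, 4.79 and 6.84 FPKM in colitis mice 2, 3 and 4 receiving BBR, against 5.63, 11.69 and 16.36 FPKM in colitis mice. All 3 mice receiving BBR lay below the mean of the colitis mice, and 1 of them lay above the lowest colitis mouse. The log2 difference was -1.12 ± 0.48 (SE), or 0.459 times, with an unadjusted P of 0.0381, a limma adjusted p of 0.733 and an exact permutation p of 0.2. It was -1.06 within mice 1 to 3 and -1.25 between the mice numbered 4. Against normal mice receiving BBR, at 3.40, 4.58 and 4.73 FPKM, colitis mice receiving BBR differed in C4b by a log2 value of 0.15 (95% interval -0.90 to 1.2).

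C2 was at 3.57, 5.44 and 1.27 FPKM in colitis mice 2, 3 and 4 receiving BBR. Mouse 4, which was near normal mice in neutrophil markers, was within the normal range of C2, and mouse 3 was within the colitis range. The log2 difference from colitis mice was -0.85 ± 0.50 (SE), with an unadjusted P of 0.115. For C2 it was -0.13 within mice 1 to 3 and -2.28 between the mice numbered 4, and -0.27 without colitis mouse 4 receiving BBR. The same mouse 4 was the lowest of its group for C3 (28.37, 89.14 and 22.20 FPKM in mice 2, 3 and 4), Cfb (92.58, 82.55 and 58.59 FPKM) and Cd55 (81.55, 278.72 and 33.46 FPKM). Its summed smooth muscle markers were 2757.73 FPKM, above the range of the normal mice, against 316.24 and 285.68 FPKM in mice 2 and 3, and the part of this make-up in its low values was not tested.

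With BBR, the log2 difference from colitis mice was -0.08 (95% interval -1.56 to 1.40) for C3. It was -0.09 (-0.59 to 0.41) for Cfb and -0.27 (-1.80 to 1.26) for Cd55. These intervals allow changes of more than 2 times in either direction for C3 and Cd55, and less for Cfb. C3 and Cd55 shared their highest mouse in both groups, colitis mouse 2 and colitis mouse 3 receiving BBR, which were also highest for C4bp, a soluble inhibitor of the classical convertase, at 19.6 and 19.3 FPKM. The same mice were highest in their groups for the epithelial markers Epcam, Krt18 and Krt20, though not for the other epithelial markers, so this is not particular to complement genes.

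Serping1 was at 35.85, 41.31 and 45.37 FPKM in colitis mice receiving BBR, with an SD of 4.78 FPKM against 44.9 FPKM in colitis mice. The range of the colitis mice enclosed these values, and the log2 difference was -0.62 ± 0.35 (SE), with an unadjusted P of 0.103. Cd59a was at 6.08, 4.73 and 14.51 FPKM with BBR, overlapping the colitis mice, and its log2 difference was 0.23 ± 0.57 (SE).

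In normal mice, BBR was not followed by a detectable difference in any of these genes. None of the 8 passed the limma adjusted limit, which 0% of all genes passed, and none passed the unadjusted limit, which 1.36% passed. None had groups that did not overlap, against 9.62% of all genes. C3 was at 9.74, 13.97 and 16.25 FPKM in normal mice 1, 3 and 4 receiving BBR, and Cfb at 64.94, 74.38 and 43.86 FPKM. Cd55 was at 49.18, 28.61 and 41.77 FPKM, with a log2 difference from normal mice of 0.53 (95% interval -0.998 to 2.06). The difference was 0.11 (-0.97 to 1.2) for C2 and 0.01 (-1.04 to 1.06) for C4b, and 3 mice a group leave all these intervals wide.

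Colitis mice receiving BBR were also set against normal mice receiving BBR, which gives the colitis difference under BBR in mice separate from the first comparison. None of the 8 genes passed the limma adjusted limit, which 0.0392% of all genes passed. C3 and Cfd as higher and Serping1 as lower passed the unadjusted limit, so 3 of 8 passed where 19.7% of all genes did. The same 3 genes had groups that did not overlap, against 20.2% of all genes. The median log2 difference was 0.65 over the 8 genes and -0.40 over all genes, or -0.03 over all genes with quantile normalization.

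C3 was at 28.37, 89.14 and 22.20 FPKM in colitis mice receiving BBR and at 9.74, 13.97 and 16.25 FPKM in normal mice receiving BBR. Every colitis mouse lay above every normal mouse, with a log2 difference of 1.55 ± 0.68 (SE), or 2.92 times, an unadjusted P of 0.0416, a limma adjusted p of 0.246 and an exact permutation p of 0.1. For C3 it was 2.10 within mice 1 to 3 and 0.45 between the mice numbered 4. Serping1 was at 35.85 to 45.37 FPKM in colitis mice receiving BBR and at 69.10 to 78.70 FPKM in normal mice receiving BBR. All colitis mice lay below all normal mice, with a log2 difference of -0.84 ± 0.35 (SE), or 0.558 times, an unadjusted P of 0.0341, a limma adjusted p of 0.239 and an exact permutation p of 0.1. Summed fibroblast markers were 166.2 to 253.65 FPKM and 299.54 to 593.33 FPKM in the same groups, and their part in the difference of Serping1 was not tested.

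The log2 difference of C2 in this comparison was 0.94 ± 0.50 (SE), with a limma adjusted p of 0.291. Without colitis mouse 4 receiving BBR it was 1.51, with a limma adjusted p of 0.0396, in a range of 0.0396 to 0.671 over the alternatives. In the fit without that mouse 2255 of all genes passed the limma adjusted limit, against 6 in the fit as reported. Cfb differed by 0.36 ± 0.23 (SE), Cd55 by 1.23 ± 0.70 (SE) and Cd59a by -1.09 ± 0.57 (SE) on the log2 scale, all with overlapping groups. The estimate for Cd55 was 0.43 without colitis mouse 3 receiving BBR and 1.95 without colitis mouse 4 receiving BBR. The test of whether the BBR difference was the same in colitis mice and normal mice gave no limma adjusted call for any gene (0% of all genes), and 2.42% of all genes passed the unadjusted limit. Cfd was the 1 of 8 that passed it, and the estimates of the other 7 genes were below 0, from -0.20 for Cd59a to -1.14 for C4b.

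Cfd, factor D or adipsin, is made mainly by fat cells and cuts factor B. It was at 0.27, 0.13 and 97.75 FPKM in normal mice 1, 3 and 4 and at 0.00, 0.21 and 0.20 FPKM in normal mice receiving BBR. In colitis mice 1, 2 and 4 it was at 2.78, 0.12 and 0.07 FPKM, and in colitis mice 2, 3 and 4 receiving BBR at 59.95, 28.61 and 1.41 FPKM. Only normal mouse 4 and colitis mice 2 and 3 receiving BBR exceeded 3 FPKM among the 12, and 5 mice were under the level that 3 reads would give, about 0.174 to 0.277 FPKM depending on the mouse. Between colitis mice and normal mice the log2 difference of Cfd was -2.09 (95% interval -6.64 to 2.46), with a limma adjusted p of 0.545, and within mice 1 to 3 it was 1.45. The log2 difference between colitis mice with and without BBR was 4.85 ± 2.08 (SE), with an unadjusted P of 0.0385, a limma adjusted p of 0.736 and an exact permutation p of 0.2. The lowest of the mice receiving BBR lay below the highest colitis mouse.

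Against normal mice receiving BBR, the log2 difference of Cfd in colitis mice receiving BBR was 6.03 ± 2.08 (SE), with an unadjusted P of 0.0137 and a limma adjusted p of 0.215. The groups did not overlap. Without colitis mouse 4 receiving BBR the limma adjusted p of Cfd was 0.0412, in a fit where 2255 of all genes passed, against 6 as reported. Over the alternatives the limma adjusted p of Cfd ranged from 0.0296 to 0.528. Differences of this size depend on the constant of 0.1 added before the logarithm, because values near 0 enter them.

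Of the 8 adipocyte markers, Adipoq and Fabp4 had the same 3 highest mice as Cfd, and the other 6 did not. Adipoq, the fat cell hormone adiponectin, was at 13.05 FPKM in normal mouse 4, at 7.35 and 4.10 FPKM in colitis mice 2 and 3 receiving BBR, and at 0 to 0.54 FPKM in the other 9 mice. Pearson's r with Cfd over the 12 mice on the log2 scale was 0.982 for Adipoq, 0.709 for Fabp4, 0.668 for Cidec, 0.662 for Plin1, 0.609 for Lep, 0.381 for Lpl, -0.09 for Pck1 and -0.18 for Plin4. The sum of the 8 markers was 97.93 to 207.02 FPKM in normal mice, 56.79 to 126.1 FPKM in normal mice receiving BBR, 33.33 to 49.41 FPKM in colitis mice and 64.23 to 100.41 FPKM in colitis mice receiving BBR. Pck1, which epithelium also makes, supplied much of that sum, and the defining marker Plin1 was at 0 in 9 of the 12 mice. The part of fat in the level of Cfd was not tested. Among 11942 genes with a mean of at least 1 FPKM, those most like Cfd over the 12 mice were Adipoq, Car3 (r = 0.936), Retn (0.925), Cyp2e1 (0.907) and Thrsp (0.769).

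**Figure D3:**
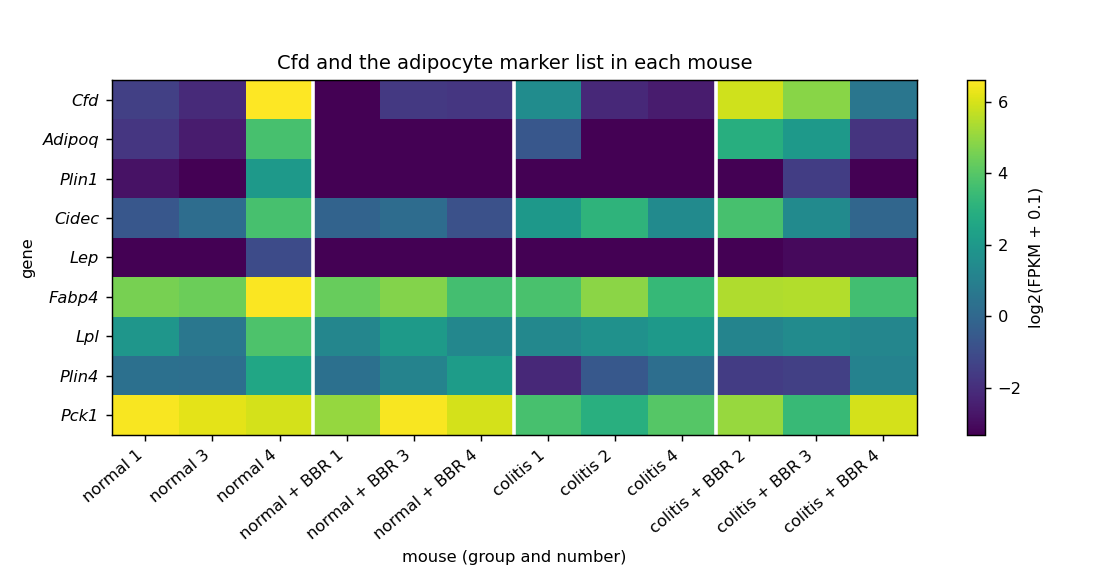
Level of Cfd and of the 8 adipocyte markers (rows) in the 12 mice (columns, ordered by group) as colour on the log2(FPKM + 0.1) scale. Cfd and Adipoq are bright in normal mouse 4 (97.75 and 13.05 FPKM) and in colitis mice 2 and 3 receiving BBR, and Pck1 and Plin4 follow another order.

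Cfi, the protease that cuts C3b and C4b, was listed at 0.00 to 0.15 FPKM in the 12 mice and was not tested. In 9 of 12 mice it was under the level that 3 reads would give, about 0.0750 to 0.119 FPKM depending on the mouse, so a difference between groups was not detectable at this depth. The genes most like C3 over the 12 mice were Slc25a22 (r = 0.923), Camk2n1 (0.914), Tnfrsf11b (0.890), Pfkfb3 (0.889) and Mmp24 (0.888). These correlations describe 12 mice that share group differences and library depth.

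A list of 51 other complement genes was examined in the same fit. Of these, 42 were in the table and 33 were tested. In colitis mice against normal mice, 17 had positive and 16 negative differences, none passed the limma adjusted limit, and 5 as higher and 3 as lower passed the unadjusted limit. So 8 of 33 passed where 21.4% of all genes did in either direction, a share near that background. As higher alone, 5 of 33 passed where 5.56% of all genes did. Their median log2 difference was 0.11, against -0.32 over all genes. In colitis mice receiving BBR against colitis mice, 11 were positive and 22 negative, none passed the limma adjusted limit, and 10 passed the unadjusted limit, all as lower, where 6.39% of all genes passed in either direction and 5.2% passed as lower. With BBR, 9 of the 33 had all 3 mice below all 3 colitis mice, against 5.66% of all genes, and their median was -0.48, against -0.09 over all genes. The 2 comparisons share the colitis mice.

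The 3 chains of C1q, which starts the classical pathway and is made largely by macrophages, had similar levels to one another. C1qa was at 34.45 to 45.67 FPKM in normal mice, at 43.67, 136.09 and 51.77 FPKM in colitis mice 1, 2 and 4 and at 30.57, 40.16 and 25.55 FPKM in colitis mice receiving BBR. The log2 difference from colitis mice to those receiving BBR was -1.10 for C1qa, -1.19 for C1qb and -1.05 for C1qc, without overlap, at limma adjusted p of 0.584, 0.608 and 0.568. Summed macrophage markers were 24.33 to 69.34 FPKM in colitis mice and 18.33 to 30.8 FPKM in colitis mice receiving BBR. Cd68, which made up most of the highest of the latter sums (22.94 FPKM in mouse 2), differed by -0.24 on the log2 scale. All 6 macrophage markers were lower with BBR, with a median log2 difference of -1.09, and Csf1r (-1.19), Cx3cr1 (-1.27) and Adgre1 (-0.99) did not overlap. The part of macrophages in the differences of C1q was not tested. The proteases C1ra and C1s1 differed by -0.79 and -0.80, with overlap, and C1rb and C1s2 were at 0 to 0.05 FPKM in all 12 mice.

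Of the 8 tested receptors, 7 had positive differences in colitis mice against normal mice and 7 had negative differences in colitis mice receiving BBR against colitis mice. Their median log2 differences were 0.64 and -1.11, against -0.32 and -0.09 over all genes, and both comparisons share the same colitis mice. C3ar1, the receptor of the C3a fragment, was at 1.22, 2.12 and 1.54 FPKM in colitis mice and at 0.44, 0.65 and 0.81 FPKM with BBR, with a log2 difference of -1.24 ± 0.37 (SE) and a limma adjusted p of 0.512. C5ar1 differed by -1.02 and C5ar2 by -0.48 in the same comparison, both with overlap. Itgam and Itgb2, the chains of complement receptor 3 on neutrophils and macrophages, were, like C4bp, singled out after their values were seen. They differed by 1.25 and 1.04 in colitis mice against normal mice and by -1.30 and -1.22 with BBR. Neither passed the limma adjusted limit in either comparison. Of the terminal components that build the pore, 3 of 7 were tested, and C9 and Hc (complement C5) were at 0 to 0.15 FPKM in all mice.

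**Figure D4:**
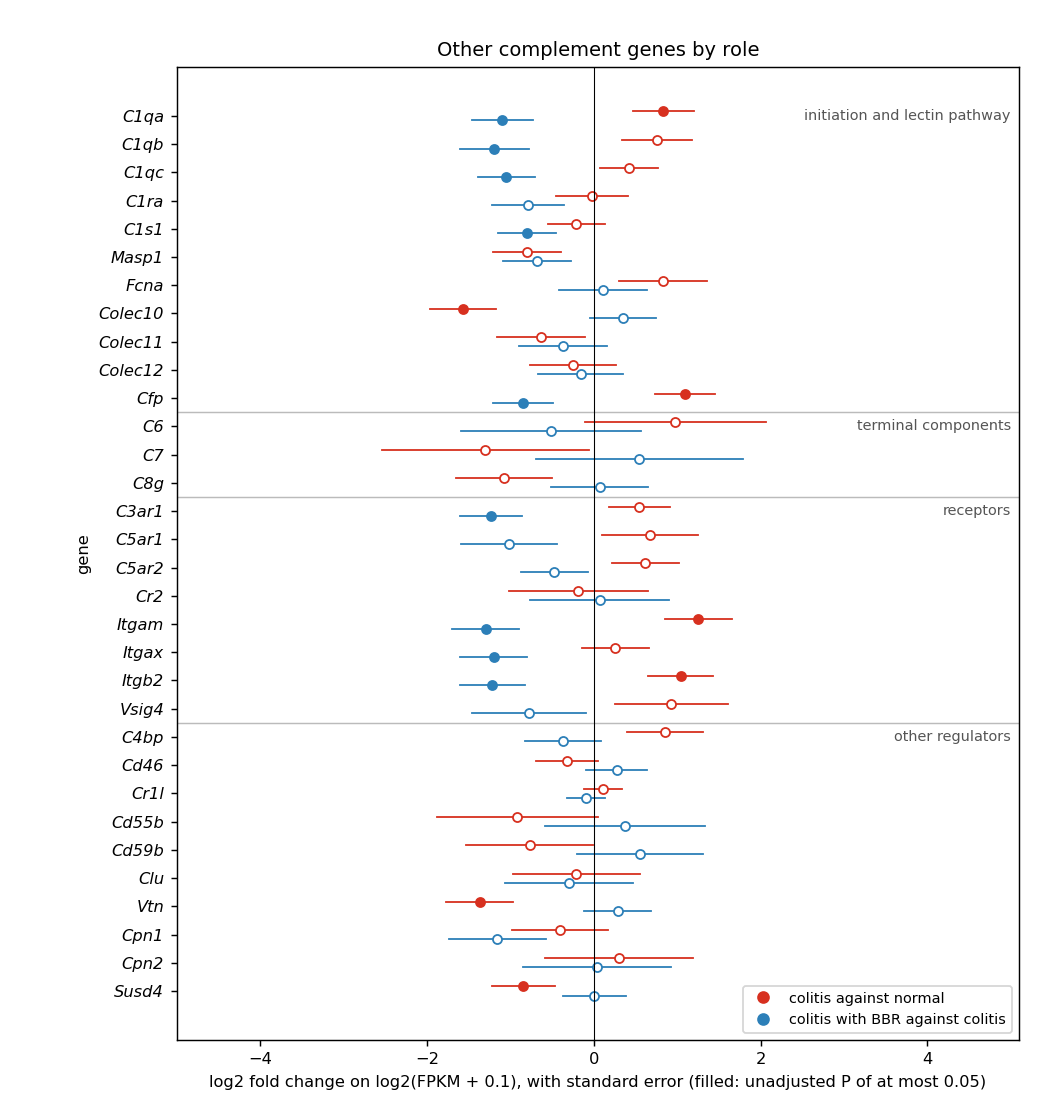
Log2 differences (x axis, with SE bars) of 32 of the 33 other complement genes tested (y axis, by role) in colitis mice against normal mice (red) and in colitis mice receiving BBR against colitis mice (blue), filled at an unadjusted P of at most 0.05. All 9 filled blue points lie below 0, from -0.80 for C1s1 to -1.30 for Itgam.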

How the data were processed

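Rectal RNA of 12 mice was sequenced as single-end reads by the authors, who filtered reads with SOAPnuke (version 1.5.2), mapped them with Bowtie2 (version 2.2.5) and estimated expression with RSEM (version 1.2.12). The labels' processing notes name the mouse build mm9, and the labels and the methods differ on the library kit and sequencer. The authors deposited a single table of expression values, taken as FPKM from their size and low-value steps, and TPM cannot be told apart from it with certainty. Read counts were not used here, so depth is known only from those steps, and the level of 3 reads was estimated from them and the longest GENCODE transcript of a gene. Groups follow the sample labels, and nothing says that the mice of a group came from separate cages or days, so p-values measure the spread between these mice.

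Values were not rescaled. limma (version 3.58.1, R version 4.3.3) was fitted to log2(FPKM + 0.1) for all 12 mice with 1 mean per group, a trend in the prior spread and Benjamini-Hochberg adjustment over 15315 genes with a mean of at least 0.1. Single genes were also compared by two-sided permutation, enumerated exactly over 3 mice against 3 (SciPy version 1.17.1). The script was tested on simulated data. The named genes were the 9 complement genes, the paralogs, the C1q and C1r/C1s chains and the anaphylatoxin receptors of a list of 51 other complement genes, and for C3 and Cfd the 5 genes most like each. The values of 1 of the 33 other complement genes tested are not reported here, and it stays in the counts. These genes, the marker lists and the tests were chosen with earlier results of these data known. Alternatives covered the pseudocount, the filter, quantile and median scaling, the groups in the fit, the trend, the replicate number as a block, the mice numbered 4 and leaving out each mouse. Between normal mice with and without BBR, same-numbered mice deviated together from their group means (r of 0.109 to 0.657 over genes in all 3 pairs). These r values are a weak hint of pairing, since normal mouse 1 with normal mouse 3 receiving BBR (0.366) and normal mouse 3 with normal mouse 1 receiving BBR (0.456) correlated more than the same numbers did (0.29 and 0.109). The hint came from the data and not from the labels. Neither the fit as reported nor the permutation test used pairs, and the replicate number entered only as a block among the alternatives.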

Additional observations from a re-analysis of the deposited data

Results flagged for a closer look

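The difference in Cfd with BBR ran in opposite directions in normal mice and in colitis mice. All 3 normal mice receiving BBR lay below the mean of the normal mice on the log2(FPKM + 0.1) scale, and all 3 colitis mice receiving BBR lay above the mean of the colitis mice. The log2 difference with BBR was -3.27 in normal mice and 4.85 in colitis mice. The test of the difference between them gave 8.12 ± 2.94 (SE), with an unadjusted P of 0.0177 and a limma adjusted p of 0.9998. The mean of the normal mice rests on normal mouse 4, at 97.75 FPKM of Cfd and 13.05 FPKM of Adipoq, while normal mice 1 and 3 had 0.27 and 0.13 FPKM of Cfd.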

How the results depend on the processing

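In the fit as reported, none of the 8 tested genes passed the limma adjusted limit in any comparison. In colitis mice against normal mice, a term for the mice numbered 4 gave 3 genes past it (C4b, C2 and Cfb) and mice 1 to 3 alone gave 2 (C2 and Cfb, the latter just inside the limit of 0.05). Over all genes, the term gave 1412 calls and mice 1 to 3 alone gave 804, against 165 in the fit as reported. In colitis mice receiving BBR against normal mice receiving BBR, mice 1 to 3 alone gave 2 (C2 and Cfd), and leaving out 1 mouse gave 0 to 2, the 2 being C2 and Cfd without colitis mouse 4 receiving BBR. Calls over all genes in this comparison were 2302 with mice 1 to 3 alone and 2255 without that mouse, against 6 in the fit as reported. The replicate number as a block gave 0 of the 8 in every comparison, while over all genes it took the calls in colitis mice against normal mice from 165 to 734. The numbers were not used as pairs in the fit as reported in any comparison. The lowest r of a same-numbered pair was 0.078, and 5 of 12 mice correlated best with a mouse of their own number. The block changed no other call of these genes. It reversed C4b in colitis mice receiving BBR against normal mice receiving BBR to -0.0106.

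The sign of small log2 differences depended on the setting. With each mouse centred on its median, Serping1 was at 0.0912 in colitis mice against normal mice and at 0.0106 in normal mice receiving BBR against normal mice, and C3 and Cfb were at 0.0697 and 0.0605 in colitis mice receiving BBR against colitis mice. Mice 1 to 3 alone gave 1.45 for Cfd in colitis mice against normal mice, 0.30 for C3, 0.0540 for Cfb and -0.0250 for Cd59a in colitis mice receiving BBR against colitis mice, 0.0015 for Serping1 with BBR in normal mice, and -0.0398 for C4b in colitis mice receiving BBR against normal mice receiving BBR. A pseudocount of 1 gave -0.0103 for C4b with BBR in normal mice. Leaving out 1 mouse gave ranges that cross 0. In colitis mice against normal mice these were -3.66 to 0.71 for Cfd and -0.72 to 0.20 for Serping1. In colitis mice receiving BBR against colitis mice they were -0.46 to 0.70 for Cd59a, -0.69 to 0.42 for C3, -1.07 to 0.45 for Cd55 and -0.23 to 0.10 for Cfb. With BBR in normal mice they were -0.33 to 0.87 for C3, -0.32 to 0.51 for C4b, -0.27 to 0.47 for C2 and -0.10 to 0.0560 for Serping1. They were -0.12 to 0.44 for C4b in colitis mice receiving BBR against normal mice receiving BBR, and -0.95 to 0.26 for C3 and -0.88 to 0.27 for Cd59a in the test of the difference between BBR differences. The cause was not tested. Of 720 recomputed values, 671 kept their direction and their side of the limit. The higher levels of C3, C4b, C2, Cfb and Cd55 in colitis mice against normal mice kept their direction in all of them.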
